A study of Homo sapiens with 20 samples.

Results

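The 8 genes examined were the AU-rich element binding proteins ZFP36, ZFP36L1, ZFP36L2, KHSRP, ELAVL1, TIA1 and TIAL1 together with the Pumilio protein PUM2. They were named by gene symbol, by a rule that used no measured value but with earlier results of these data known. Every probe set annotated to 1 of these symbols alone was taken. This gave 8 of 19775 named genes and 31 of 54675 probe sets. Of the 31 probe sets, 24 lay above the filter on low signal (mean log2 intensity of 4.70 over all arrays), and each of the 8 genes had at least 1 that passed, so all 8 were tested. The brightest probe set on average stands for its gene. Signal is the intensity of an RMA-processed array on a linear scale, relative to the other transcripts on the same array.

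The 20 arrays came from U2OS, an established human osteosarcoma line grown in DMEM with 10% fetal calf serum, in 5 conditions with 4 arrays each. Control cells received no stress. The other cells were held for 3 hr below 0.1% oxygen (hypoxia), in 2.5 ug/ml tunicamycin, an inhibitor of N-linked glycosylation that stresses the endoplasmic reticulum, or in 100 ug/ml emetine, an inhibitor of translation elongation, or carried a short hairpin RNA against UPF1, the helicase of nonsense-mediated decay (UPF1-depleted). No control hairpin is named for the control arrays. RNA was then taken at 0 hr and at 1.5, 3 and 4.5 hr after 100 ug/ml of DRB, which inhibits transcription by RNA polymerase II, with 1 array per condition and time. The labels do not say whether a stress was kept up during DRB, and nothing says that the arrays came from separate cultures, so p-values measure only how far single arrays lie from fitted lines, a spread that may be technical. In bulk RNA, fewer cells with a transcript and less transcript per cell cannot be told apart.

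AU-rich elements are stretches of A and U in the 3' end of messages for cytokines, immediate early transcription factors and other short-lived products. ZFP36 (tristetraprolin) and its paralogs ZFP36L1 and ZFP36L2 bind them through CCCH zinc fingers and recruit the CCR4-NOT deadenylase, which starts decay, and KHSRP recruits the decay machinery through its KH domains. ELAVL1 (HuR) binds similar sequences and is known mainly for protecting messages from decay. TIA1 and TIAL1 repress translation and gather messages in stress granules, and PUM2 binds Pumilio elements, which differ from AU-rich elements, and represses messages through deadenylation. Several of these regulators are themselves made from short-lived messages, ZFP36 being an immediate early gene, so the stability of their own transcripts was also measured.

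The promoters of ZFP36 and ZFP36L1 are shown first. Their fitted level differences at DRB addition, from lines through arrays before and after DRB, were the largest of members with a promoter entry. ZFP36L2 has no entry. Both are the 250 bases before a RefSeq start on GRCh38.p14, and capitals mark matches on either strand to the GC box GGGCGG, the TATA box TATAA and the cyclic AMP response element TGACGTCA. ZFP36 lies at chr19:39406847-39409407, and the window is chr19:39406597-39406846 on the plus strand. ZFP36L1 lies at chr14:68787655-68796243, and the window, from its RefSeq entry lower in coordinate, is chr14:68793417-68793666 on the minus strand.
ZFP36: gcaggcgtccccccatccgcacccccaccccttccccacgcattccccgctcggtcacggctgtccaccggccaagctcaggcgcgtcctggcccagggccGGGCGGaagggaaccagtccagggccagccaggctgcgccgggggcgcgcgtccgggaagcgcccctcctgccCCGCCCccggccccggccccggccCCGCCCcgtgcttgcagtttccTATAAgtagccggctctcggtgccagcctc
ZFP36L1: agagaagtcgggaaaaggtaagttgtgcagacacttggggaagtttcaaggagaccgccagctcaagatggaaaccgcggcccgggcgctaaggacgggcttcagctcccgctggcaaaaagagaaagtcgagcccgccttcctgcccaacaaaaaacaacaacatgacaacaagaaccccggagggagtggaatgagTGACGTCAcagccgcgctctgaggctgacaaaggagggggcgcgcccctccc
The ZFP36 window holds 3 GC boxes and 1 TATA box, which begins 30 bases before the start. The ZFP36L1 window, which lies within the gene span given above, holds 1 cyclic AMP response element and no GC box. Over 35116 RefSeq promoters cut to the same length, 42.64% hold a GC box, 18.93% the TATA letters and 1.65% the cyclic AMP response element. The motifs GCGGGGGCG (4.72% of promoters), TGATGNAA (3.14%) and the CArG box (1.16%) matched neither window, and neither did ACGTG (18.51%). A match describes the letters of the window and not binding. Promoter entries for 6 of the 8 members were matched. The window of the other ZFP36L1 entry, chr14:68796244-68796493 on the minus strand, borders the gene span. It holds no cyclic AMP response element, GC box or TATA box.

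The depletion label was checked on UPF1 itself, whose brighter probe set read 352 to 392 on the control arrays and 89.4 to 169.5 on the UPF1-depleted arrays, with no overlap. Of 10 mesenchymal and osteoblast markers, 9 lay above the filter, VIM, COL1A1 and SPARC among the brightest, and COL1A2 lay below it. Of 9 measured markers of other cell types, 5 lay above it, EPCAM the brightest at a mean log2 of 8.11, and PTPRC, CDH1, CDH5 and ALB lay below. Median signal was 37.3 to 40.4 per array. The log2 ratio of the 3' to the 5' probe set of ACTB, a sign of RNA integrity or labelling length, was 0.55 ± 0.10 (SD, n = 4 arrays) in control and 0.54 ± 0.11 in tunicamycin, but 2.04 ± 0.13 in hypoxia, 2.04 ± 0.19 in emetine and 1.24 ± 0.06 in UPF1-depleted cells. This end ratio moved with 3 of the 4 comparisons below, and its part in the members' values was not tested.

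ZFP36, the founding destabilizer, was dim everywhere except in emetine. Its only probe set read 121, 95.3, 101 and 106 in control, at the 4 times in order. In emetine it read 3162, 2598, 2151 and 2269. Hypoxia gave 143, 91.3, 107 and 162, tunicamycin 127, 92.6, 82.5 and 92.4, and the UPF1-depleted cells 137, 88.3, 78.6 and 85.9. All 4 emetine arrays lay above all 16 others, while the other 4 conditions overlapped one another. The fitted level difference between emetine and control at DRB addition was 4.76 ± 0.15 (log2, SE), 27.0-fold (adjusted p = 2.58e-09), and the measured 0 hr arrays differed by 4.70. It passed under each of 31 alternative settings, between 4.40 and 5.06. The other 3 conditions differed from control by 0.02 ± 0.15 in hypoxia, 0.04 ± 0.15 in tunicamycin and 0.10 ± 0.15 in UPF1-depleted cells, none of which passed.

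No loss of ZFP36 message after DRB was detectable with these arrays. Its slope was -0.03 ± 0.07 log2 per hr in control, where signal started at 121. At the high level in emetine the slope was -0.11 ± 0.07 (adjusted p = 0.497), and 71.8% of the 0 hr signal remained at 4.5 hr. The steepest slope of ZFP36 was -0.15 ± 0.07 in UPF1-depleted cells (adjusted p = 0.132), where 62.6% remained at 4.5 hr. No slope of ZFP36 and no slope difference from control passed in any condition. Outside emetine its signal was low and the floor is unknown, so these slopes do not show a stable message.

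ZFP36L1 was bright and fell after DRB in every condition but emetine. Control arrays read 2444, 1100.4, 936 and 799 at the 4 times. Hypoxia read 3523, 1321, 955 and 793, and UPF1-depleted cells read 2886, 1579.6, 1176 and 956. These series all started high and dropped most between 0 and 1.5 hr. Tunicamycin read 4325, 2054, 1323 and 1142, above control at each of the 4 times. Emetine held 3276, 3521, 3488 and 3413, so its lowest array lay above every array taken after DRB in the other conditions.

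The level of ZFP36L1 at DRB addition rose in tunicamycin by 0.88 ± 0.20 (adjusted p = 0.0323) and in emetine by 0.74 ± 0.20 (adjusted p = 0.00968). The fitted level is the start of a line through all 4 times, so it also draws on arrays taken after DRB. The measured 0 hr arrays differed from control by 0.82, or 1.77-fold, in tunicamycin and by 0.42 in emetine. The tunicamycin call was lost in 9 of 31 alternatives, among them without the control array at 0 (adjusted p = 0.135), 1.5 (0.0903) or 4.5 hr (0.0781), without the tunicamycin array at 0 (0.331) or 1.5 hr (0.0851), and without the UPF1-depleted array at 1.5 hr (0.0503). Without the emetine array at 0 hr the emetine estimate was 1.40, and with the median of the gene's probe sets the estimates were 0.41 in tunicamycin (adjusted p = 0.431) and 0.24 in emetine (adjusted p = 0.451). Hypoxia gave 0.48 ± 0.20 (adjusted p = 0.159) and UPF1 depletion 0.36 ± 0.20 (adjusted p = 0.25).

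The decline of ZFP36L1 was front-loaded. In control 1.15 log2 units were lost by 1.5 hr, where 45.0% of the 0 hr signal remained, against 0.46 over the following 3 hr. Fitted slopes were -0.34 ± 0.08 log2 per hr in control (adjusted p = 0.00495), -0.46 ± 0.08 in hypoxia (0.000681), -0.43 ± 0.08 in tunicamycin (0.00173) and -0.35 ± 0.08 in UPF1-depleted cells (0.00472), all downward. At 4.5 hr the remaining signal was 32.7% in control, 22.5% in hypoxia, 26.4% in tunicamycin, 33.1% in UPF1-depleted cells and 104.2% in emetine. The emetine slope, 0.01 ± 0.08, differed from control by 0.35 ± 0.07 (adjusted p = 0.00418). These calls rest on the array taken at 0 hr. Without it the slopes were -0.15 in control, -0.24 in hypoxia, -0.28 in tunicamycin and -0.24 in UPF1-depleted cells with adjusted p between 0.159 and 0.422, and the emetine difference was 0.28 without the control and 0.16 without the emetine array (adjusted p = 0.128 and 0.164). With the median of the gene's probe sets the slopes in control (-0.17), hypoxia (-0.20) and UPF1-depleted cells (-0.10) and the emetine difference (0.19) did not pass either.

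ZFP36L2 had the steepest loss of the 8 in control, hypoxia and UPF1-depleted cells, and was the only one whose slope was flatter than control in tunicamycin by the test. Control arrays read 740.1, 394, 150.0 and 105. Hypoxia followed with 882, 589, 166 and 126. UPF1-depleted arrays read 932, 634, 388 and 199. In these 3 conditions the signal at 4.5 hr was 14.2%, 14.3% and 21.4% of that at 0 hr. Tunicamycin read 654, 637, 459 and 415, the lowest start of the 5 conditions but the second highest end. Emetine read 1349, 1166, 1151 and 1179, above every array of the other conditions. The remaining signal at 4.5 hr was 63.5% in tunicamycin and 87.4% in emetine.

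The control slope of ZFP36L2 was -0.66 ± 0.06 log2 per hr (adjusted p = 4.54e-06). Its signal fell by 0.91 log2 up to 1.5 hr and by 1.90 over the next 3 hr, less front-loaded than ZFP36L1. The second probe set (201369_s_at) changed in control by -1.09 log2 up to 1.5 hr and by -0.24 over the next 3 hr. This contrast with ZFP36L1 did not hold there. With the brightest probe set, slopes were -0.68 ± 0.06 in hypoxia (adjusted p = 1.6e-05) and -0.49 ± 0.06 in UPF1-depleted cells (6.67e-05). The slope in tunicamycin, -0.16 ± 0.06, did not pass (adjusted p = 0.0814), and that in emetine was -0.04 ± 0.06. Against control the slope was higher by 0.49 ± 0.08 in tunicamycin (adjusted p = 0.00302) and by 0.62 ± 0.08 in emetine (adjusted p = 0.00016). Hypoxia differed by -0.03 ± 0.08 and UPF1 depletion by 0.16 ± 0.08 (adjusted p = 0.78). The tunicamycin difference lost its call without the control array at 0 hr (0.44, adjusted p = 0.0856) or the tunicamycin array at 0 hr (0.46, adjusted p = 0.0883). The emetine difference and the slopes in control, hypoxia and UPF1-depleted cells passed whichever array was left out. The choice of probe set moved them more. With the median of the gene's 4 probe sets, 1 of them below the filter, the slope difference was 0.11 in tunicamycin (adjusted p = 0.283) and 0.08 in emetine (adjusted p = 0.343). The slope itself was then -0.12 in control (adjusted p = 0.052), -0.16 in hypoxia (0.0161, still passing) and -0.09 in UPF1-depleted cells (0.13).

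The level of ZFP36L2 at DRB addition rose in emetine by 0.83 ± 0.22 (adjusted p = 0.00953), 1.78-fold. That call was lost without the control array at 0 hr (adjusted p = 0.0685) and without the emetine array at 0 hr (0.55 log2, adjusted p = 0.291). In UPF1-depleted cells the estimate was 0.46 ± 0.22 (adjusted p = 0.187), in hypoxia 0.37 ± 0.22 (0.344) and in tunicamycin -0.08 ± 0.22 (0.901).

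**Figure D1:**
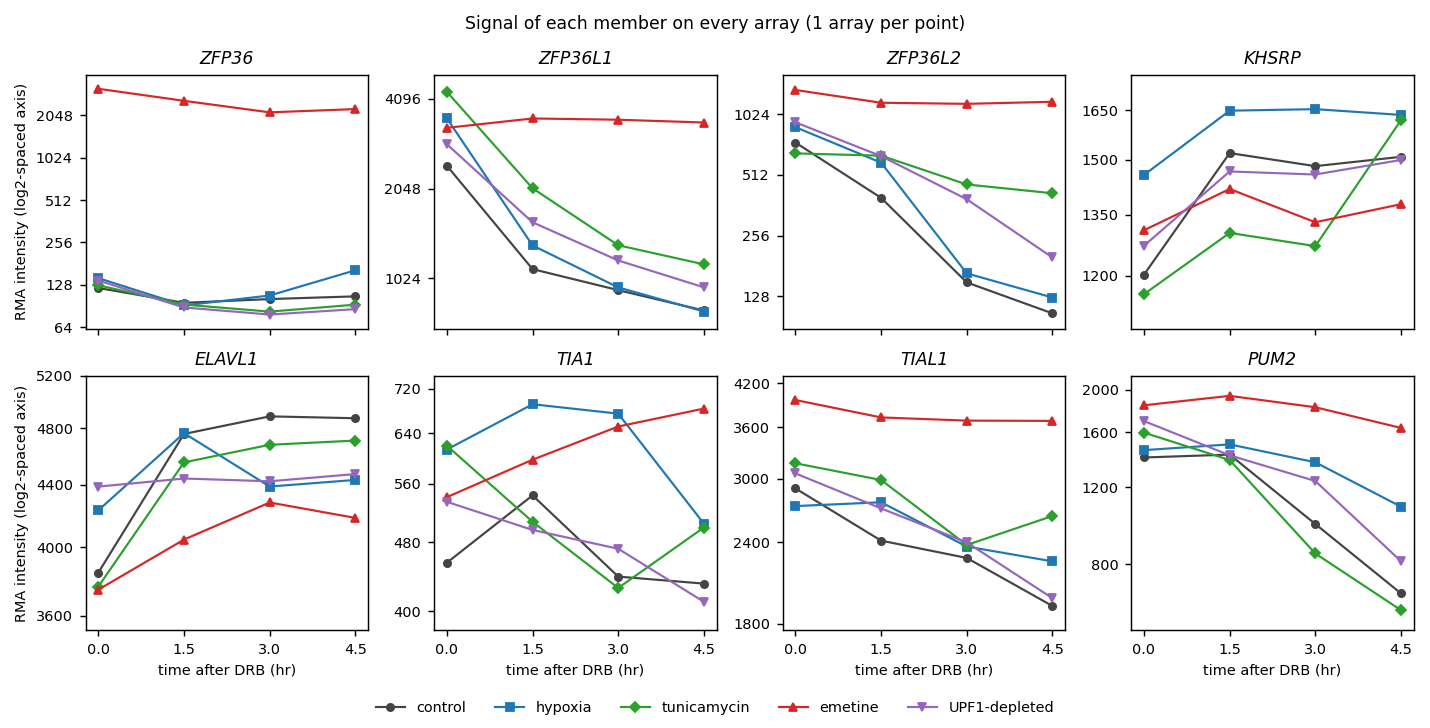
RMA intensity (log2-spaced axis, a separate range in each panel) of the 8 members against time after DRB in hr, 1 point per array and 1 line per condition. ZFP36 in emetine (2151 to 3162) lies far above the other conditions, ZFP36L1 and ZFP36L2 stay high in emetine while they decline in control, and ZFP36L2 in tunicamycin ends at 415 against 105 in control.

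KHSRP, the KH-domain destabilizer, was close to level in all conditions. Control arrays read 1203, 1519, 1482 and 1508, and hypoxia 1457, 1649, 1653 and 1635. Tunicamycin read 1158, 1303, 1270.4 and 1619, emetine 1309.8, 1418, 1330.1 and 1377, and UPF1-depleted cells 1271, 1467, 1458 and 1499. The 0 hr array was the lowest of its 4 in each condition, and the conditions overlapped. Hypoxia lay above control at each time, but its level difference of 0.23 ± 0.10 did not pass (adjusted p = 0.196). The largest other difference was -0.17 ± 0.10 in tunicamycin (adjusted p = 0.443). Its slope in tunicamycin rose by 0.09 ± 0.03 log2 per hr relative to the array (adjusted p = 0.0393), and this passed in 19 of 29 alternatives. Without the tunicamycin array at 4.5 hr the slope was 0.04 (adjusted p = 0.556), and without that at 0 hr it was 0.10 (adjusted p = 0.349). It was also lost without the hypoxia array at 3 hr (0.052), the emetine array at 3 (0.0517) or 4.5 hr (0.0519) or the UPF1-depleted array at 3 hr (0.0514). With arrays centred on ribosomal protein genes the slope was 0.07 (adjusted p = 0.134), and with the median of probe sets 0.07 (0.0958). The call was also lost with no filter (0.0559) and in the fit over all probe sets (0.0503).

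ELAVL1, the stabilizer, had no level difference and no slope that passed with its representative probe set. Control arrays read 3847, 4758, 4888 and 4874. Tunicamycin was close, at 3766, 4555, 4679 and 4709.8. Emetine read 3748, 4047, 4284 and 4184, below control at each time. Hypoxia read 4232, 4764, 4389 and 4434, and UPF1-depleted cells 4389, 4444, 4425 and 4474, the flattest series of the 5. Level differences lay between -0.09 ± 0.09 in emetine and 0.11 ± 0.09 in hypoxia. The slope in control was 0.07 ± 0.03 log2 per hr (adjusted p = 0.0683), a relative rise over the array.

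TIA1 and TIAL1, paralogs that repress translation, differed in their representative probe sets. TIA1 read 455, 543, 438 and 430.3 in control, 613, 691, 674 and 504 in hypoxia and 541, 597, 651 and 683 in emetine. Tunicamycin gave 619, 507, 425 and 499, and UPF1-depleted cells 534, 496, 472 and 410.2. Hypoxia lay above control at every time, with a level difference of 0.46 ± 0.17 that did not pass (adjusted p = 0.126), and the 4 differences of TIA1 all missed the threshold. No slope of TIA1 passed.

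TIAL1 read 2901, 2414, 2271 and 1917 in control and 3961, 3725, 3684 and 3680.1 in emetine, where each array was brighter than every array of the other conditions. Hypoxia gave 2726, 2763, 2364 and 2244, tunicamycin 3169.9, 2989, 2377 and 2632, and UPF1-depleted cells 3059, 2704, 2399 and 1971. These 3 overlapped control. The level rose in emetine by 0.45 ± 0.11 (adjusted p = 0.0069), 1.36-fold. The call was lost without the control array at 0 hr (adjusted p = 0.0772) or the emetine array at 0 hr (0.17), and with the median of the gene's probe sets the estimate was -0.084 (adjusted p = 0.525). TIAL1 fell after DRB in control by 0.13 ± 0.03 log2 per hr (adjusted p = 0.00376) and in UPF1-depleted cells by 0.14 ± 0.03 (adjusted p = 0.00212). Each of these was lost when the 0 hr array (adjusted p = 0.147 and 0.0543) or the 4.5 hr array (0.0887 and 0.128) of its condition was left out, and with the median of probe sets (-0.04 and -0.07, adjusted p = 0.243 and 0.0815). Slopes in hypoxia, -0.07 ± 0.03 (adjusted p = 0.0655), and in tunicamycin, -0.08 ± 0.03 (0.062), were also downward but did not pass. They passed in 7 and 6 of 30 alternatives. The slope in emetine was -0.02 ± 0.03, and its difference from control, 0.10 ± 0.04, did not pass (adjusted p = 0.113).

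PUM2, the Pumilio repressor, fell late. Control arrays read 1402, 1423, 988 and 686, so nothing was lost by 1.5 hr and 49.0% remained at 4.5 hr. Tunicamycin read 1598, 1383, 846 and 628, and UPF1-depleted cells 1698, 1418, 1239 and 813, with 39.3% and 47.9% remaining. Hypoxia read 1457, 1502, 1367 and 1082, and emetine 1844, 1938, 1826 and 1637, above control at every time in both cases. There 74.3% and 88.8% of the 0 hr signal remained.

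Slopes of PUM2 fell by 0.24 ± 0.04 log2 per hr in control (adjusted p = 0.000712), by 0.32 ± 0.04 in tunicamycin (0.000165) and by 0.23 ± 0.04 in UPF1-depleted cells (0.00137). Without the 4.5 hr array of the condition the slope was -0.17 in control (adjusted p = 0.0879) and -0.15 in UPF1-depleted cells (0.165), and the tunicamycin slope passed whichever array was left out. The emetine slope, -0.04 ± 0.04, was higher than control by 0.20 ± 0.04 (adjusted p = 0.00525), a call lost without the 4.5 hr array of control (0.17, adjusted p = 0.101) or of emetine (0.18, adjusted p = 0.102). In hypoxia the difference was 0.15 ± 0.04, with an unadjusted p of 0.004 and an adjusted p of 0.249. The level in emetine was 0.29 ± 0.12 above control (adjusted p = 0.0646), which did not pass.

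**Figure D2:**
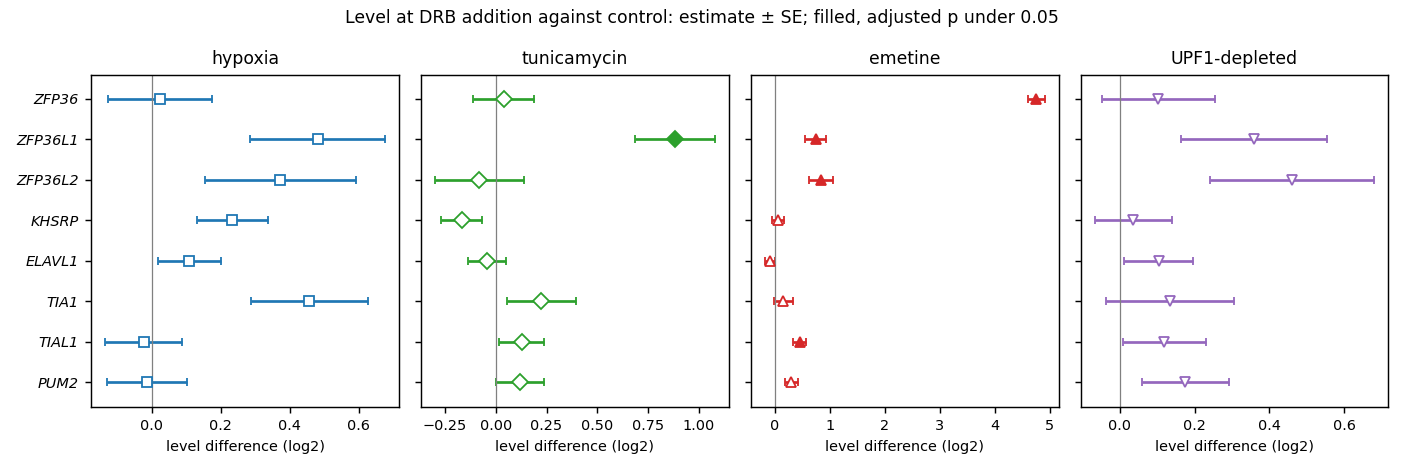
Level difference from control at DRB addition (log2, estimate ± SE) of the 8 members in each of the 4 comparisons, with filled points for an adjusted p under 0.05 and a separate range in each panel. ZFP36 in emetine stands at 4.76, the other 4 filled points lie between 0.45 and 0.88, and no point is filled in hypoxia or UPF1-depleted cells.

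Counted over the members, 5 of 32 level differences passed, all upward: 4 of 8 in emetine, 1 of 8 in tunicamycin and none in hypoxia or UPF1-depleted cells. Among all 14478 genes tested with limma, 18.9% passed upward and 19.8% downward in emetine, 1.97% and 0.926% in tunicamycin, 3.21% and 4.44% in hypoxia, and 9.68% and 3.99% in UPF1-depleted cells. At an unadjusted p under 0.05, 3 members passed in hypoxia (ZFP36L1, KHSRP and TIA1, all upward), where 23.2% of all genes passed, and 0 in UPF1-depleted cells, where 28.7% did. All 8 estimates in UPF1-depleted cells lay above 0, but 3 did without the control array at 0 hr. Quantile normalization put the upward share of all calls in UPF1-depleted cells at 51.7% in place of 70.8%. The 4 comparisons share the control arrays.

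Of the 32 slope differences from control 4 passed, all upward: 3 of 8 in emetine (ZFP36L1, ZFP36L2 and PUM2), 1 of 8 in tunicamycin (ZFP36L2) and none in the others. The shares over all genes were 12.8% upward and 1.58% downward in emetine, 4.66% and 0.58% in tunicamycin, 0.0345% and 0% in hypoxia, and 0.0345% and 0.00691% in UPF1-depleted cells. A count of none in hypoxia and UPF1-depleted cells is therefore close to what nearly every gene showed there. With quantile normalization the upward share of calls was 76.1% against 89.0% in emetine and 66.7% against 83.3% in UPF1-depleted cells. The UPF1-depleted shares rest on only 4 upward and 2 downward calls with quantile normalization, and on 5 and 1 in the main fit.

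Within conditions, 13 of 40 slopes passed. In control 4 members fell (ZFP36L1, ZFP36L2, TIAL1 and PUM2), against 17.5% of all genes downward and 14.2% upward. The same 4 fell in UPF1-depleted cells, where 16.5% of genes passed downward and 11% upward. In hypoxia 2 fell (ZFP36L1 and ZFP36L2; 14.2% of genes downward, 15.3% upward), and in tunicamycin 2 fell and 1 rose (ZFP36L1 and PUM2; KHSRP), where 11.4% and 11% of genes passed. None passed in emetine by limma, where 0.325% of genes passed downward and 0.0691% upward. At an unadjusted p under 0.05 the members' count in emetine was 0 as well, and 12.8% of all genes passed. The upward share of calls over all genes moved with scaling: 44.9% in control was 59.7% with quantile normalization and 27.6% with arrays centred on ribosomal protein genes. The same 3 shares were 52.0%, 57.0% and 33.4% in hypoxia, 49.2%, 58.7% and 24.4% in tunicamycin, 17.5%, 15.8% and 6.6% in emetine, and 39.9%, 59.9% and 20.7% in UPF1-depleted cells.

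**Figure D3:**
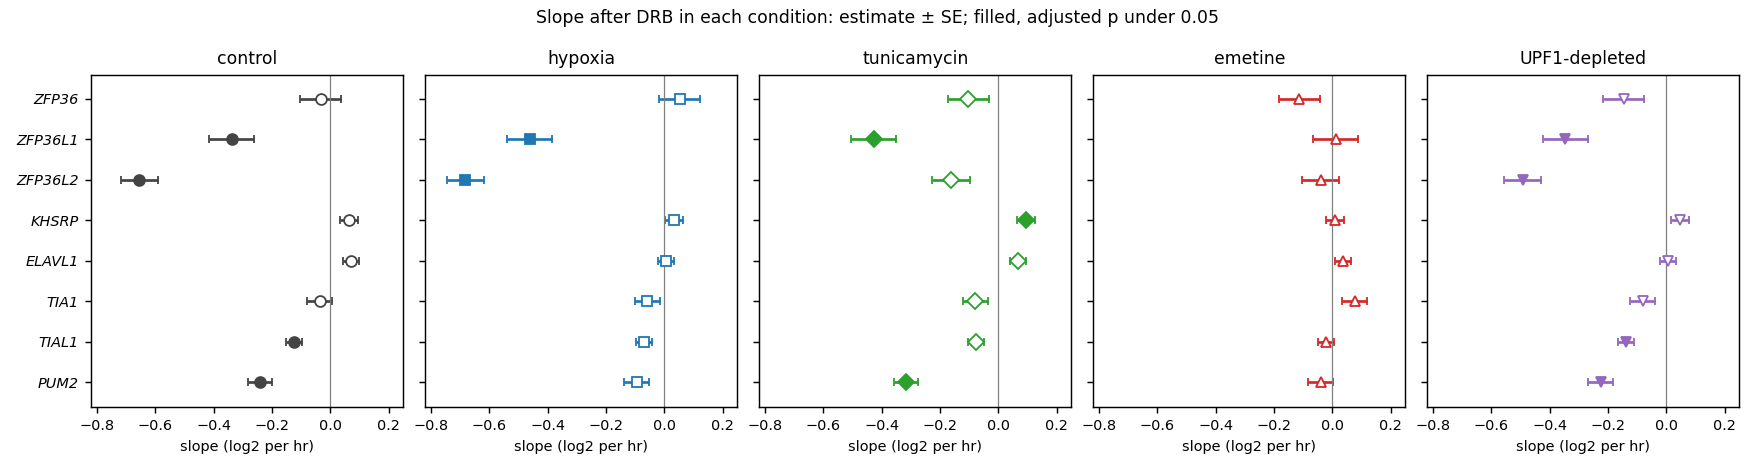
Slope of log2 signal after DRB (log2 per hr, estimate ± SE) of the 8 members in each condition, with filled points for an adjusted p under 0.05. ZFP36L2 is lowest in control (-0.66) and hypoxia (-0.68), ZFP36L1 is lowest in tunicamycin (-0.43), and in emetine all 8 slopes lie between -0.11 and 0.08 with no filled point.

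Of the members, 7 had more than 1 probe set, and these did not always give the same answer. A second probe set of ZFP36L1 (211965_at) fell from 156 to 42.9 in control and stayed between 132 and 138 in emetine, with a slope difference of 0.38 ± 0.10 (adjusted p = 0.0331 in the fit over 26962 probe sets). Its level in emetine, 132 at 0 hr against 156 in control, gave no call. For ZFP36L2 the second probe set (201369_s_at) rose in emetine by 1.10 ± 0.22 (adjusted p = 0.002). Its slope differences, 0.14 ± 0.08 in emetine (adjusted p = 0.301) and 0.17 ± 0.08 in tunicamycin (0.35), did not pass, against 0.62 and 0.49 for the brightest probe set. The third (227681_at), between 37.9 and 52.7 on all arrays, gave no level or slope difference that passed. A second probe set of PUM2 (216221_s_at) read 658, 643, 430.4 and 272 in control and 1093, 1187, 1109.7 and 1031 in emetine. It passed for the level in emetine (0.62 ± 0.14, adjusted p = 0.00421) as well as for the slope (0.27 ± 0.05, adjusted p = 0.00335).

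For the other binding proteins the probe sets disagreed in emetine. KHSRP 204371_s_at was lower by -0.56 ± 0.14 (adjusted p = 0.00714), reading 84.9, 79, 96.7 and 89.2 in emetine against 118, 121, 185 and 132 in control. ELAVL1 201727_s_at was lower by -0.57 ± 0.15 (adjusted p = 0.0115), reading 295, 329, 325 and 391 against 393, 598, 481 and 602. TIAL1 230350_at was lower by -0.42 ± 0.12 (adjusted p = 0.0177), opposite to the brighter probe set, and in hypoxia it was lower by -0.60 ± 0.12 (adjusted p = 0.0123) where the brighter one gave -0.02. TIA1 1554890_a_at, by contrast, read 367, 406, 364 and 373 in emetine against 165, 226, 187 and 211 in control, a rise of 1.08 ± 0.12 (adjusted p = 2.28e-05) that none of the 5 other TIA1 probe sets above the filter showed. Among TIA1 probe sets, 2 passed upward in UPF1-depleted cells, 201448_at by 0.65 ± 0.17 (adjusted p = 0.0309) and 201449_at by 0.64 ± 0.19 (adjusted p = 0.0494). TIA1 201449_at also fell after DRB in control (-0.19 ± 0.05, adjusted p = 0.0169) and not in emetine, a slope difference of 0.25 ± 0.07 (adjusted p = 0.0335). The ACTB end ratio was 2.04 in emetine and in hypoxia and 1.24 in UPF1-depleted cells against 0.55 in control, and its part in these disagreements was not tested.

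**Figure D4:**
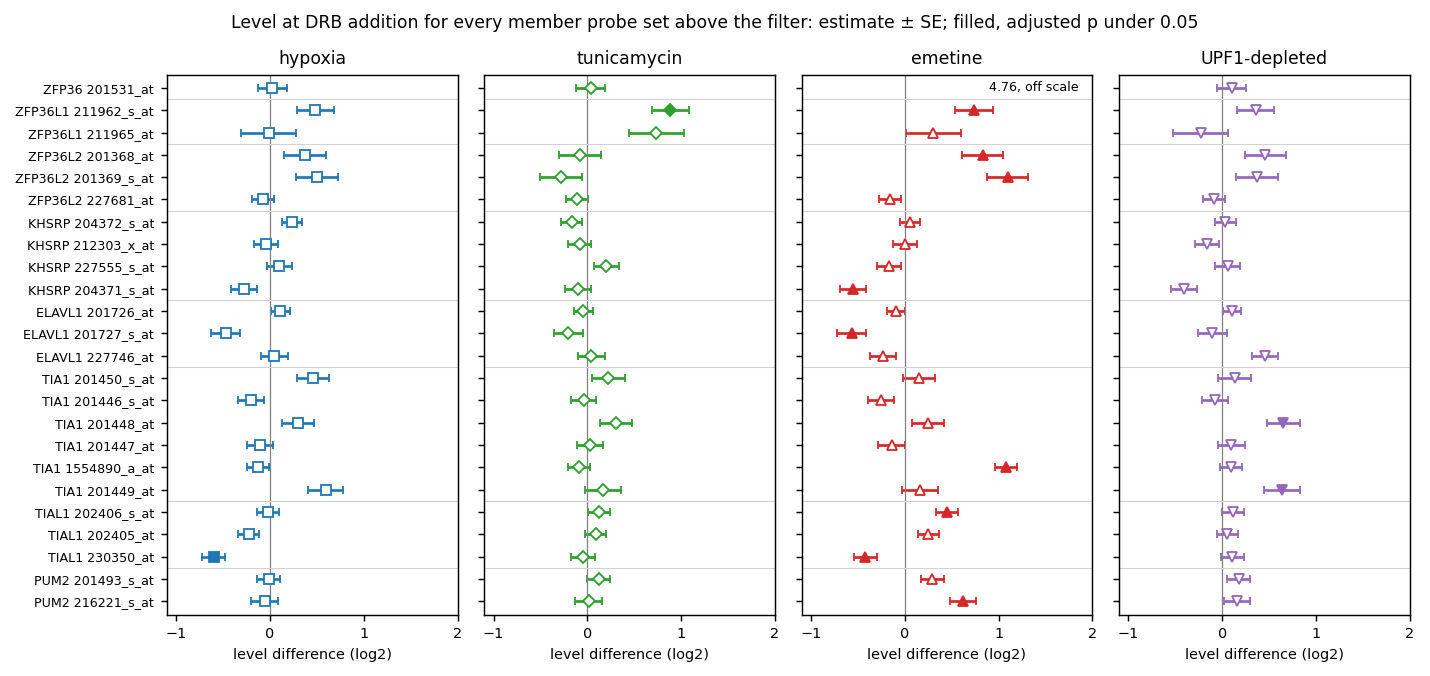
Level difference from control at DRB addition (log2, estimate ± SE) for the 24 member probe sets above the filter, from the fit over all probe sets, with filled points for an adjusted p under 0.05; ZFP36 in emetine (4.76) is off the scale and printed as a number. In emetine TIAL1 202406_s_at lies above 0 and TIAL1 230350_at below it, and TIA1 1554890_a_at at 1.08 stands apart from the other TIA1 probe sets.

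Across the 20 arrays the log2 signals of ZFP36L1 and ZFP36L2 had a Pearson r of 0.90, ZFP36L2 and TIAL1 also 0.90, and ZFP36L1 and ELAVL1 -0.76. These are descriptions over arrays that share conditions and times. The genes most like ZFP36 were FOS (r = 0.990), LSMEM1 (0.989) and CREBRF (0.988), measured over arrays of which the 4 in emetine stood apart for ZFP36. Most like ZFP36L1 were FBXO5 (0.972), ZNF200 (0.969) and ZNF7 (0.965), and most like ZFP36L2 were TDG (0.983), ZNF317 (0.976) and ZFAND5 (0.970). TIAL1 was nearest to SETDB1 (0.974), RNF103 (0.973) and BRPF1 (0.972), and PUM2 to PLAGL2 (0.958), CHD1 (0.958) and TBC1D20 (0.957). The members with flat series had lower best values: KHSRP with STK26 (0.911), IFT81 (0.908) and FKBP3 (0.900), ELAVL1 with TCEA1 (0.912), CDK2 (0.907) and C22orf23 (0.889), and TIA1 with CAND1 (0.847), HOXD10 (0.845) and PLCXD1 (0.844).

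Messages known to carry AU-rich elements, the targets of these proteins, were measured from a list of 44, of which 36 were tested. In emetine 24 of 36 rose in level and 7 fell, with a median difference of 1.92 against -0.08 over all genes, and 18.9% and 19.8% of all genes passed in the same directions. FOS, an immediate early transcription factor, was 7.74 ± 0.49 above control there (adjusted p = 4.06e-07) and CXCL8, the neutrophil chemokine, 2.91 ± 0.17 (adjusted p = 2.65e-07). ZFP36, the decay factor for such messages, rose by 4.76 in the same comparison. In tunicamycin 6 rose and 1 fell, CXCL8 by 1.93 ± 0.17 (adjusted p = 5.62e-05). In hypoxia 3 rose and 2 fell, VEGFA, the angiogenic growth factor, by 1.53 ± 0.20 (adjusted p = 0.000838). In UPF1-depleted cells 5 rose and 2 fell, the chemokine CCL2 by -1.22 ± 0.20 (adjusted p = 0.0018). Over all genes 1.97% rose and 0.926% fell in tunicamycin, 3.21% and 4.44% in hypoxia, and 9.68% and 3.99% in UPF1-depleted cells. The counts in UPF1-depleted cells and the 2 that fell in hypoxia were near those shares. The count that rose was 13 in emetine without probe sets ending in _s_at or _x_at, 2 in tunicamycin without its 0 hr array, and 0 in UPF1-depleted cells without theirs.

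After DRB, 14 of the 36 fell in control, 12 in hypoxia, 16 in tunicamycin, 12 in UPF1-depleted cells and 0 in emetine, and none rose. Over all genes 17.5%, 14.2%, 11.4%, 16.5% and 0.325% fell in the same order. Their median slope was -0.30 log2 per hr in control and -0.04 in emetine, against 0.03 over all genes in both. The control median was -0.02 without the control array at 0 hr, so that contrast rests on this array. Without the 0 hr array of the condition, 5 fell in control, 6 in hypoxia, 4 in tunicamycin and 3 in UPF1-depleted cells. Slopes were higher than control for 11 of 36 in emetine, MCL1, a survival factor of the BCL2 family, by 0.62 ± 0.07 (adjusted p = 9.79e-05), a count of 5 without the control array at 0 hr. In tunicamycin 3 were higher, MAFF, a small Maf transcription factor, by 0.40 ± 0.07 (adjusted p = 0.00758), and 0 without that array. Upward slope differences were called for 12.8% of all genes in emetine and 4.66% in tunicamycin.

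**Figure D5:**
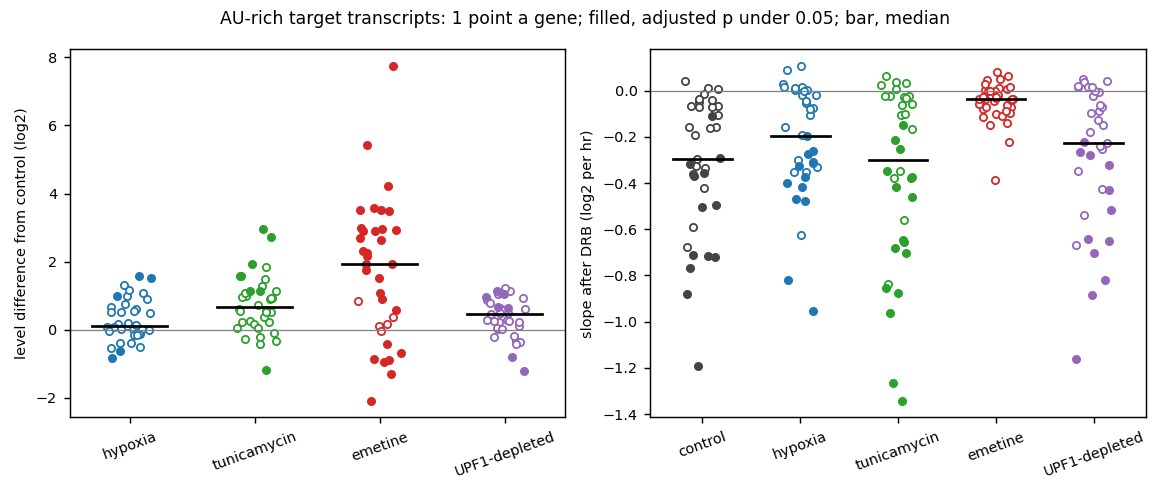
The 36 AU-rich target transcripts tested, 1 point per gene, with filled points for an adjusted p under 0.05 and a bar at the median. The left panel gives the difference in level from control (log2), with the emetine median at 1.92, and the right panel the slope after DRB (log2 per hr), with medians of -0.30 in control (-0.02 without its 0 hr array) and -0.04 in emetine.

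Among 30 other tested proteins that bind AU-rich or related 3' sequences, 7 rose and 3 fell in level in emetine, 3 rose in UPF1-depleted cells, 2 rose in hypoxia and 1 fell in tunicamycin. Among all genes 18.9% rose and 19.8% fell in emetine, 9.68% rose in UPF1-depleted cells, 3.21% rose in hypoxia and 0.926% fell in tunicamycin, so the counts in emetine and UPF1-depleted cells were near those shares or below them. RC3H1 (Roquin), which represses messages through stem-loops, rose in emetine by 1.29 ± 0.11 (adjusted p = 2.37e-06), and IGF2BP3, a binder of m6A-marked and other messages, in UPF1-depleted cells by 2.12 ± 0.26 (adjusted p = 0.000299). ELAVL2, the neuronal paralog of ELAVL1, rose in hypoxia by 0.60 ± 0.10 (adjusted p = 0.00484), where ELAVL1 gave 0.11. ZC3HAV1, a zinc finger antiviral factor, was lower in tunicamycin by -0.63 ± 0.13 (adjusted p = 0.0207). Without the control array at 0 hr, 0 of these proteins rose in hypoxia and 0 fell in tunicamycin. Slopes were higher than control for 4 in emetine, HNRNPA1 by 0.59 ± 0.12 (adjusted p = 0.00381), a count of 0 without the control array at 0 hr, and for none elsewhere. Upward slope differences were called for 12.8% of all genes in emetine, and the count of 4 was near that share.

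Of 34 tested partners and regulators, such as deadenylase and decapping subunits and the p38 pathway that inactivates ZFP36, 10 rose and 6 fell in level in emetine. In UPF1-depleted cells 4 rose and 1 fell, in hypoxia 1 rose and in tunicamycin 1 fell. The shares over all genes were those given for the proteins above, with 3.99% falling in UPF1-depleted cells. DCP1A, of the decapping complex, rose by 1.13 ± 0.14 in emetine (adjusted p = 5.08e-05). DCP2, of the same complex, rose by 0.99 ± 0.15 in UPF1-depleted cells (adjusted p = 0.00146). NANOS1, a partner of Pumilio proteins, rose in hypoxia by 0.90 ± 0.25 (adjusted p = 0.0457), and EIF4E2, a cap-binding repressor, was lower in tunicamycin by -0.49 ± 0.10 (adjusted p = 0.0265). CNOT6L, a catalytic deadenylase subunit, had a slope 0.22 ± 0.04 higher than control in emetine (adjusted p = 0.00295), as did 3 others, and 2 were lower. Slope differences there were called upward for 12.8% and downward for 1.58% of all genes. In tunicamycin 1 slope was higher than control and that of EIF4E2 was lower, by -0.18 ± 0.04 (adjusted p = 0.0128). Over all genes 4.66% were called upward and 0.58% downward there. With the median of the gene's probe sets 0 partners had a lower slope in tunicamycin. Without its 0 hr array, emetine gave 3 that rose in level, and without the control array at 0 hr UPF1-depleted cells gave 0.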

How the data were processed

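Total RNA of U2OS cells was hybridized to Affymetrix 3' expression arrays, and the authors deposited 1 linear intensity per probe set and array. They made it with RMA, per the submitters' processing notes, with the version not given in the sources used here. RMA normalizes between arrays, so a loss of RNA common to most transcripts is removed, and each slope is relative to other transcripts. The array's background correction could not be redone, and log2(intensity + 32) was an alternative in its place.

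Intensities were transformed to log2, and gene symbols came from the platform annotation, updated by Entrez identifier. Of 54675 probe sets, 41097 had 1 symbol, 1801 several and 11777 none, and 6 controls were set aside. Each gene took its brightest probe set, and the 14478 genes above the 40th percentile of mean log2 signal (4.70) were tested.

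limma 3.58.1 in R 4.3.3 (lmFit, eBayes) was fitted to all 20 arrays with terms for condition, for each time and for a line over time in each condition (12 coefficients, 8 residual degrees of freedom). Slopes within conditions came from a line per condition (10 coefficients, 10 residual degrees of freedom). Benjamini-Hochberg adjustment ran over all genes, with a threshold of 0.05, and probe sets were fitted separately over 26962. The scripts were tested on simulated data. Alternatives were the filter, the probe set rule, scaling, the offset, the time factor and leaving out each array. Pairwise array correlations were 0.930 to 0.996.

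Named genes were all members, the strongest passing gene of each context list per comparison and readout, and the 3 genes most correlated with each member. FOS is also given for its level, which was chosen after its values were seen. The members and lists were chosen with earlier results of these data known. Promoter sequences are from RefSeq on GRCh38.p14.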

Additional observations from a re-analysis of the deposited data

Results flagged for a closer look

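Of 40 sets of 4 arrays (a member in a condition), 7 had 1 array far from its other 3 by Dixon's test, against about 1 in 20 by chance. The 4 arrays of a set are 4 times after DRB, so a change over time lies within the test, and all 7 arrays were those taken at 0 hr. ZFP36L2 at 0 hr in emetine was the highest at 1349, and TIAL1 at 0 hr in emetine the highest at 3961. KHSRP at 0 hr was the lowest of its set in control (1203), hypoxia (1457) and UPF1-depleted cells (1271), and ELAVL1 at 0 hr the lowest in control (3847) and tunicamycin (3766).

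Against control, 4 slope differences passed limma's test of the difference itself. ZFP36L2 in tunicamycin was higher than control by 0.49 log2 per hr. In emetine ZFP36L1 was higher by 0.35, ZFP36L2 by 0.62 and PUM2 by 0.20.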

How the results depend on the processing

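Of 3158 member values recomputed under alternative settings, 3063 kept their side of the threshold, 57 lost the call, 37 gained one and 1 called value changed sign. Most of these values had no call to lose. In the main fit 5 of 32 level differences, 4 of 32 slope differences and 13 of 40 slopes within conditions passed. Leaving out an array of another condition also leaves the estimate of a slope within a condition unchanged. Of the 3063, 87 were not called in either fit and changed sign, 52 of them with an array left out. With the median of a gene's probe sets, which takes in probe sets below the filter, the level difference of TIAL1 in emetine was -0.084 log2 (adjusted p = 0.525), 1 slope difference passed in place of 4, and 7 slopes within conditions in place of 13. Without probe sets ending in _s_at or _x_at, KHSRP had none left and PUM2 only 1, below the filter. Then 3 of 24 level differences passed in place of 5 of 32, and 8 of 30 slopes within conditions in place of 13 of 40. With no time factor 3 level differences and 3 slope differences passed, and ZFP36L1 lost its level calls in tunicamycin and emetine and its emetine slope difference. With each array left out in turn, 2 to 6 level differences, 2 to 4 slope differences and 11 to 14 slopes within conditions passed. ZFP36L1 in emetine lost its level call with the median of probe sets (adjusted p = 0.451), without _s_at or _x_at (0.44) and with no time factor (0.0775), and ZFP36L2 in emetine lost its slope difference with the median of probe sets (0.08 log2 per hr, adjusted p = 0.343). The cause of these changes was not tested. One array stands for each condition and time, and arrays of all conditions were matched by time through the time factor. No detection calls were used, so the floor under low signals, such as ZFP36 outside emetine, is unknown.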
